A study of Mus musculus with 12 samples.

Results

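Insulin-like growth factors are secreted peptides that signal through a receptor tyrosine kinase, and a family of binding proteins holds most of the peptide in the extracellular space. The 10 genes of this system described here, Igf1, Igf2, Igf1r, Igf2r, Igfbp2, Igfbp3, Igfbp4, Igfbp5, Igfbp6 and Igfbp7, were taken by mouse gene symbol from a table of 55092 features, in which each symbol stood on 1 row. Of the 10, 9 passed the filter on low values and were among the 14676 genes tested, and Igf2 did not. RNA-Seq of abdominal aortas was compared between 4 groups of 3 male mice. CFS were CCN2 fl/fl mice infused with saline, CSS were CCN2SMCΔ mice infused with saline, CFA were CCN2 fl/fl mice infused with Ang II, and CSA were CCN2SMCΔ mice infused with Ang II. CCN2SMCΔ mice carried the floxed Ccn2 alleles with the Myh11-Cre-ERT2 transgene, a tamoxifen-inducible Cre under a smooth muscle promoter, and CCN2 fl/fl mice carried the floxed alleles without Cre. All groups received 5 doses of tamoxifen from 8 weeks of age, and infusion by osmotic minipump began after a washout of 2 weeks. Ang II was given at 500 ng/kg/min, and aortas were taken at day 7. The study reports infrarenal aneurysms in most CCN2SMCΔ mice at this dose and day, and mild ones elsewhere in few CCN2 fl/fl mice. The sample labels do not give the aneurysm state of each aorta. In comparisons with CSA, deletion and aneurysm therefore cannot be told apart. The comparisons ask how the transcripts of the system differ with deletion of CCN2 in SMCs, Ang II and their combination.

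IGF1 and IGF2 both activate the IGF1 receptor, a tyrosine kinase that signals through IRS adaptors to PI3K and AKT. The IGF2 receptor carries no kinase and removes IGF2 by endocytosis. The binding proteins compete with the receptor for ligand, and proteases that cut them release it. In the vessel wall, IGF1 is known to promote growth and survival of SMCs, and IGFBP7 is known as a secreted relative with low affinity for IGFs that is abundant in vessels.

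Each mouse gave 1 library, and values are FPKM, the fragments of a gene per length of its exons and per size of the library. Recovered depth was 14558569 to 23107768 fragments per library. Ccn2 itself was at 709.5, 1108.4 and 480.1 FPKM in CFS, 435.6, 639.9 and 586.5 in CSS, 1013.1, 1105.0 and 563.5 in CFA and 254.9, 331.1 and 398.6 in CSA. The targeted gene was thus lower in CSA than in every other library, whereas CSS and CFS overlapped (log2 fold change -0.40, limma Benjamini-Hochberg adjusted p = 1.0). Which exons were floxed is not given in the sources used here, so that the summed exons may not report the deletion in full. The study reported lower CCN2 protein in CCN2SMCΔ aortas under both saline and Ang II. It also reported a fall of Ccn2 mRNA by qPCR under Ang II. Mouse 03 of CSA lay 1.21 and 1.2 from mice 01 and 02 (root mean square log2 difference over the tested genes), against 0.505 between those mice and 0.586 to 0.743 within the other groups. A gene is called here when limma's Benjamini-Hochberg adjusted p is below 0.05 and its log2 fold change exceeds 1.5 in size. Marker genes of cell types differed with CSA. The 8 smooth muscle markers summed to 814.4 to 970.4 FPKM in CSA and to 5610.3 to 10419.0 in the other groups, and 8 of 8 were called lower in CSA than in CFA. The 8 macrophage markers summed to 1884.6 to 2029.1 FPKM in CSA and to 203.7 to 581.8 elsewhere, with 7 of 8 called higher. The 5 neutrophil markers (489.8 to 534.0 against 3.66 to 26.5 FPKM) and the 5 T-cell markers (13.0 to 19.4 against 0.164 to 1.81 FPKM) were called higher in 5 of 5 each. The macrophage marker Itgam, the neutrophil markers Mmp8 and Retnlg and the 5 T-cell markers passed the filter on low values only through CSA. Their calls of higher in CSA were thus partly set by that filter. The 7 fibroblast markers summed to 5141.6 to 6099.1 FPKM in CSA and to 1595.7 to 3441.9 elsewhere, and 0 of 7 were called against CFA, although 3 were higher and 2 lower by adjusted p alone. Most of that sum in CSA was Col1a1 (2561.0 to 3262.2 FPKM) and Col3a1 (1455.6 to 1851.0 FPKM). Col1a1, Col3a1 and Lum lay above CFA without overlap, Dpt and Pi16 lay below it without overlap, and Pdgfra and Dcn overlapped it. The 7 endothelial markers summed to 112.0 to 141.5 FPKM in CSA, below all CSS (293.7 to 415.9) and CFA (197.6 to 429.3) libraries and overlapping CFS (93.0 to 395.6) through mouse 69 alone. They did not move together, since against CFA Pecam1, Tek and Vwf were called lower, Emcn was called higher, and Cdh5, Kdr and Tie1 did not pass. The 3 erythrocyte markers (56 to 565.8 FPKM in CSA) lay below CFA (693.7 to 2321.4) and the 4 Schwann markers (13.8 to 18.1) above CFA (4.23 to 7.47), both overlapping the saline groups, with 3 of 3 called lower and 0 of 4 called against CFA. The 6 adipocyte markers (55.1 to 95.9 FPKM in CSA) lay below CFS (183.1 to 647.0) and overlapped CSS and CFA, with 2 of 6 called lower than in CFA, and the 5 skeletal muscle markers (2.58 to 3.99) overlapped each group, with 0 of the 4 tested called against CFA. The 4 B-cell genes summed to 4.44 to 7.72 FPKM in CSA and to 0.587 to 3.64 elsewhere, without overlap, and 1 of the 2 tested was called higher than in CFA. Both tested genes, Cd79a and Cd79b, also passed the filter only through CSA. The part of these cell types in the differences below was not tested, and in whole aorta fewer cells of a type and less RNA per cell cannot be told apart.

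In saline-infused CCN2 fl/fl aortas, transcripts of 4 binding proteins, Igfbp7, Igfbp4, Igfbp6 and Igfbp5, were more abundant than those of each ligand and receptor, whereas Igfbp2 and Igfbp3 were not. Igfbp7 stood first at 1675.4 ± 185.2 FPKM (SD, n = 3). Igfbp4 (164.1 ± 8.41), Igfbp6 (143.5 ± 32.6) and Igfbp5 (120.9 ± 10.5) followed, and the ranges of neighbours in that order overlapped. Igfbp2 (18.5 ± 4.02 FPKM) and Igf2r (16.9 ± 0.926 FPKM) overlapped each other, as did Igf1 (11.2 ± 2.57 FPKM) and Igf1r (9.57 ± 0.563 FPKM). Igfbp3 was at 3.58 ± 1.0 FPKM, and Igf2 came last at 0.179 ± 0.139 FPKM. Since FPKM is divided by gene length, these levels can be set in order. The place of Igf2 is less certain, because 64.5% of its exonic bases are shared with other annotated genes and its fragments may be undercounted. In CSA the order differed. Igfbp7 and Igfbp4 still led, and Igf1 (35.4 ± 7.74 FPKM) stood above Igfbp5 (20.1 ± 1.94 FPKM) with no overlap, the reverse of their order in the other groups. Igfbp3 (13.4 ± 3.59 FPKM) overlapped Igf2r (12.2 ± 1.58 FPKM) in CSA and lay below it, without overlap, in every other group.

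**Figure D1:**
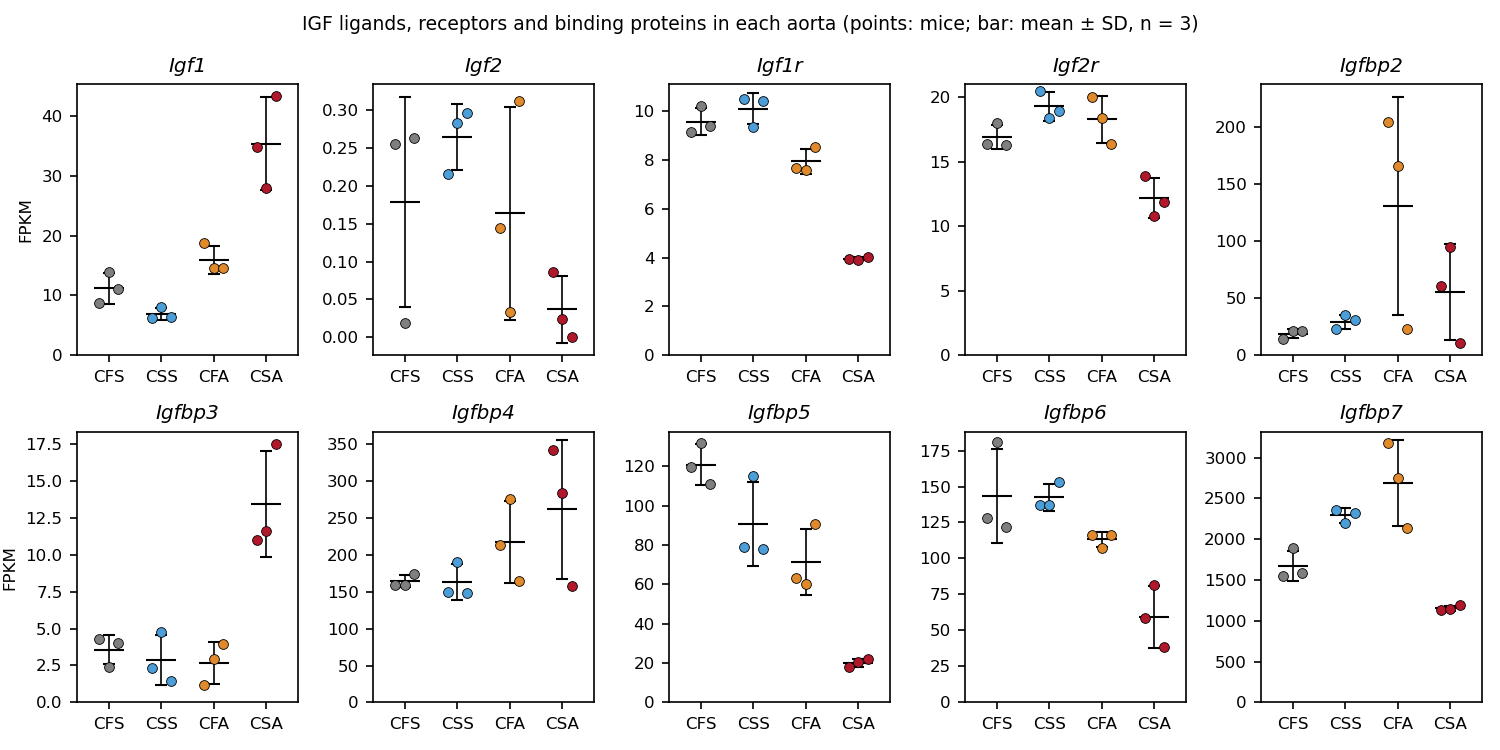
FPKM of each of the 10 genes (y axis, linear, separate scale per gene) in the 4 groups (x axis), with 1 point per mouse and bars for the mean ± SD of 3 mice. The CSA points lie above all others for Igf1 and Igfbp3 and below all others for Igf1r, Igf2r, Igfbp5, Igfbp6 and Igfbp7.

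The genes of the system that were called in at least 1 comparison numbered 4: Igf1, Igfbp3, Igfbp5 and Igfbp7. All 10 genes matched RefSeq promoter windows of GRCm38.p6, 14 windows in all, each of 300 bases with 250 before and 50 after an annotated start. The windows of these 4 are printed 5′ to 3′ on the strand of the gene, with matches to 6 motifs in capitals, because their transcripts were the ones called. They lie at chr10:87860861-87861160 (+ strand) for Igf1, chr11:7213874-7214173 (- strand) for Igfbp3, chr1:72874816-72875115 (- strand) for Igfbp5 and chr5:77407996-77408295 (- strand) for Igfbp7.
Igf1: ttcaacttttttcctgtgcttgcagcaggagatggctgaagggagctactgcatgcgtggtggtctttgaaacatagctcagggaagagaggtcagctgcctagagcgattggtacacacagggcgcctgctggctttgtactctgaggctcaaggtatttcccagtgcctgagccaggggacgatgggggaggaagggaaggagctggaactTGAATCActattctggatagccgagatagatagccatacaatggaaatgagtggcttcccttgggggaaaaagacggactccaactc
Igfbp3: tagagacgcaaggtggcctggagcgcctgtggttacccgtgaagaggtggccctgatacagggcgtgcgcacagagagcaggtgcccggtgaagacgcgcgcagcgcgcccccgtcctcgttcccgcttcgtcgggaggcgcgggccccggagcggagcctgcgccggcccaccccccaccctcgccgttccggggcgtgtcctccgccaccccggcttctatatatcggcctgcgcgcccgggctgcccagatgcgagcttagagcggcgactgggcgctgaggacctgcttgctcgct
Igfbp5: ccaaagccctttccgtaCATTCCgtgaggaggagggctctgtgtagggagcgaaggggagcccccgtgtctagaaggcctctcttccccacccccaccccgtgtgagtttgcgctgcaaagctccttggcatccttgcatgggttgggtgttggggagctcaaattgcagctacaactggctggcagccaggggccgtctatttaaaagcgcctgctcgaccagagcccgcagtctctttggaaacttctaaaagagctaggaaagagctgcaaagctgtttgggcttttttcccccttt
Igfbp7: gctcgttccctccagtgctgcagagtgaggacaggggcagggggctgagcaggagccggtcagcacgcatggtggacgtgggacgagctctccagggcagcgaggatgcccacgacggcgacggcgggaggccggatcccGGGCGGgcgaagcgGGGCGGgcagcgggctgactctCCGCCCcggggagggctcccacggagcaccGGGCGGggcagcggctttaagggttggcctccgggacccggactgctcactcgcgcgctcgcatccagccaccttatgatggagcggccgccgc
The motifs, read on both strands, were the TATA box TATAAA, the GC box GGGCGG bound by SP1, GGAATG bound by TEAD factors, TGANTCA bound by AP-1, GTAAACA bound by forkhead factors, and the CArG box bound by serum response factor. Over all 32851 windows of this length, 13.6% held TATAAA, 35.7% GGGCGG, 14.7% GGAATG, 7.81% TGANTCA, 3.65% GTAAACA and 1.63% a CArG box. The window of Igf1 held 1 TGANTCA match beginning at position -37 from the start, that of Igfbp5 held 1 GGAATG match at -233, and that of Igfbp7 held 4 GGGCGG matches at -110, -96, -74 and -44. That of Igfbp3 held 0 matches. No motif was shared by the pair that rose, Igf1 and Igfbp3, or by the pair that fell, Igfbp5 and Igfbp7. GC content was 52.3% in the window of Igf1, 71.7% in that of Igfbp3, 56.3% in that of Igfbp5 and 73.3% in that of Igfbp7. A match is a description of the letters and not a site of binding.

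Under Ang II, deletion of CCN2 in SMCs was accompanied by more transcript of the ligand Igf1 and of Igfbp3 and by less of both receptors and of Igfbp5, Igfbp6 and Igfbp7. Between CSA and CFA, 1 of the 9 tested genes was called higher (Igfbp3) and 1 lower (Igfbp5). Among all 14676 genes tested, 8.95% were called higher and 8.27% lower. By adjusted p alone, 2 of 9 were higher and 5 lower, beside 19.5% and 21.2% of all genes. The median log2 fold change was -0.99 over the 9 genes and -0.04 over all genes tested.

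Igf1 (ENSMUSG00000020053, chr10:87858265-87937042, + strand), the main growth-promoting ligand after birth, was at 8.77, 13.9 and 11.0 FPKM in CFS, 6.18, 8.11 and 6.33 in CSS, 18.7, 14.5 and 14.5 in CFA and 34.9, 27.9 and 43.4 in CSA. The groups did not overlap, and their order from low to high was CSS, CFS, CFA and CSA. In CSA Igf1 was 2.2-fold higher than in CFA (log2 fold change 1.14 ± 0.21 SE on the log2(FPKM + 0.1) scale, limma adjusted p = 0.00133). Against CSS it was 5.04-fold higher (2.33 ± 0.21, limma adjusted p = 7.68e-06), a call of higher. Under saline the difference ran the other way, with CSS 1.61-fold lower than CFS, and did not pass the adjusted threshold (-0.69 ± 0.21, limma adjusted p = 0.518, unadjusted p = 0.0079).

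Igf2 (ENSMUSG00000048583, chr7:142650766-142666816, - strand), the imprinted ligand that is prominent in fetal tissue, was close to the detection limit. It was at 0.255, 0.0187 and 0.263 FPKM in CFS (27, 2 and 26 fragments), 0.216, 0.283 and 0.297 in CSS (23, 30 and 37 fragments), 0.144, 0.0329 and 0.313 in CFA (18, 4 and 38 fragments) and 0.0861, 0.0247 and 0.0 in CSA (10, 3 and 0 fragments). The groups CFS, CFA and CSA overlapped, and a value of 0 allows up to 3 fragments. It was not tested, and no fold change is given. The annotation shares 64.5% of its exonic bases with Igf2os and Gm49394, so that counting could divide or drop its fragments.

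Igf1r (ENSMUSG00000005533, chr7:67952827-68233668, + strand), the signalling receptor, was at 9.13, 10.2 and 9.38 FPKM in CFS, 10.5, 9.33 and 10.4 in CSS, 7.68, 7.6 and 8.53 in CFA and 3.95, 3.89 and 4.01 in CSA. The CSA mice were close to each other and below every other library. Igf1r was 1.98-fold lower in CSA than in CFA (log2 fold change -0.99 ± 0.10, limma adjusted p = 3.1e-05) and 2.51-fold lower than in CSS (-1.33 ± 0.10, limma adjusted p = 3.22e-06), both short of the fold limit for a call. Igf2r (ENSMUSG00000023830, chr17:12682406-12769664, - strand), the clearance receptor, was at 16.4, 18.0 and 16.3 FPKM in CFS, 20.5, 18.4 and 18.9 in CSS, 20.0, 18.4 and 16.4 in CFA and 13.9, 10.8 and 11.9 in CSA. It was 1.5-fold lower than in CFA (-0.58 ± 0.13, limma adjusted p = 0.00326) and 1.58-fold lower than in CSS (-0.66 ± 0.13, limma adjusted p = 0.00125), with no overlap in either. The ratio of Igf1 FPKM to Igf1r FPKM was 0.96 to 1.36 in CFS, 0.591 to 0.87 in CSS, 1.7 to 2.43 in CFA and 7.18 to 10.8 in CSA, values given as a description of transcript levels.

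**Figure D2:**
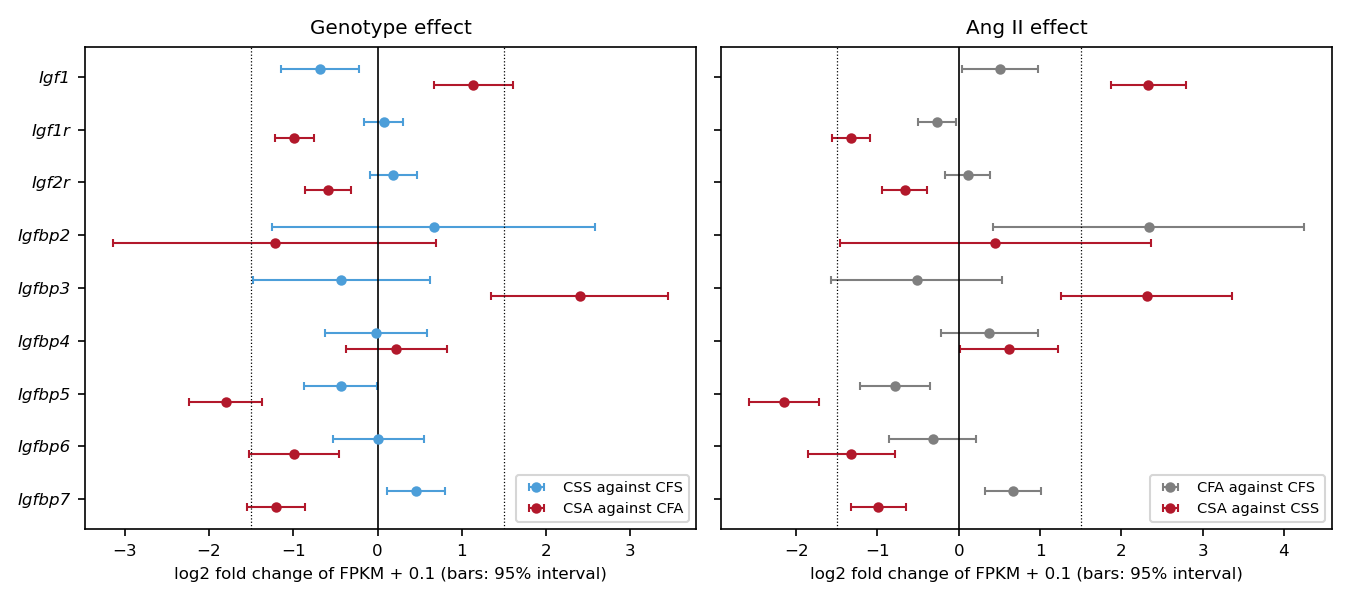
Log2 fold change of FPKM + 0.1 (x axis) for the 9 tested genes (y axis), as genotype effects under saline and Ang II (left) and Ang II effects in CCN2 fl/fl and CCN2SMCΔ mice (right). Points are estimates, bars are 95% intervals and dotted lines mark the fold limit of 1.5, which Igf1 passes between CSA and CSS (2.33) and Igfbp3 and Igfbp5 pass in both comparisons with CSA. Igfbp2 also lies past it between CFA and CFS (2.34), with a wide interval and no call.

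Igfbp3 (ENSMUSG00000020427, chr11:7206086-7213923, - strand), the main carrier of IGFs in serum, was the binding protein that rose. Its FPKM was 4.27, 2.43 and 4.04 in CFS, 2.32, 4.78 and 1.48 in CSS, 1.17, 2.92 and 3.95 in CFA and 11.0, 11.6 and 17.5 in CSA. The 3 groups other than CSA overlapped, and every CSA library lay above them. Igfbp3 was 5.27-fold higher in CSA than in CFA (log2 fold change 2.40 ± 0.48, limma adjusted p = 0.00208) and 4.96-fold higher than in CSS (2.31 ± 0.48, limma adjusted p = 0.0022).

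Igfbp5 (ENSMUSG00000026185, chr1:72857932-72874884, - strand), a matrix-associated binding protein of mesenchymal cells, showed the opposite change. It was at 119.6, 131.9 and 111.1 FPKM in CFS, 78.8, 115.1 and 77.9 in CSS, 63.1, 60.0 and 90.7 in CFA and 18.0, 20.3 and 21.9 in CSA. The CSA libraries were the lowest, and CFA lay below CFS without overlap. Igfbp5 was 3.49-fold lower in CSA than in CFA (log2 fold change -1.80 ± 0.20, limma adjusted p = 3.68e-05) and 4.43-fold lower than in CSS (-2.15 ± 0.20, limma adjusted p = 7.85e-06). In CCN2 fl/fl mice Ang II was accompanied by a 1.72-fold lower value that did not pass (-0.78 ± 0.20, limma adjusted p = 0.175), and it passed without CFA mouse 74 (-0.97, limma adjusted p = 0.0398) and with array weights, which count libraries by their fit (-0.845, limma adjusted p = 0.0296). Igfbp2 lies next to Igfbp5 on chromosome 1, with 5457 bases between the ends of the annotated genes.

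Igfbp2 (ENSMUSG00000039323, chr1:72824503-72852474, + strand), another circulating binding protein, varied widely among mice under Ang II. It was at 13.8, 20.8 and 20.8 FPKM in CFS, 22.6, 34.8 and 30.6 in CSS, 204.3, 166.1 and 22.9 in CFA and 60.5, 95.0 and 10.6 in CSA. CFA mice 71 and 72 and CSA mice 01 and 02 were above every saline library, whereas CFA mouse 74 lay within the range of CSS and CSA mouse 03 below every other library. None of the comparisons of Igfbp2 passed with all libraries weighted equally. The largest difference was between CFA and CFS (5.05-fold, log2 fold change 2.34 ± 0.87, limma adjusted p = 0.422, unadjusted p = 0.0214), which passed with array weights (2.95, limma adjusted p = 0.0309). Leaving out 1 mouse moved it between 1.76 without CFA mouse 71 and 3.34 without CFA mouse 74, and neither passed. CSA against CFA gave -1.22 ± 0.87 (limma adjusted p = 0.289), and without CFA mouse 74 it passed (-2.22, limma adjusted p = 0.0407), whereas without CSA mouse 03 it was -0.279 (limma adjusted p = 0.789). CSA against CSS gave 0.45 ± 0.87 (limma adjusted p = 0.699) and turned to -0.18 without CSA mouse 02, was 1.39 without CSA mouse 03 (limma adjusted p = 0.156), and with array weights passed at 1.44 (limma adjusted p = 0.0407).

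Igfbp4 (ENSMUSG00000017493, chr11:99041244-99054392, + strand), a binding protein that inhibits IGF action until it is cut by the protease PAPP-A, did not pass in any comparison with all libraries weighted equally. It was at 158.9, 159.7 and 173.8 FPKM in CFS, 149.9, 190.8 and 147.9 in CSS, 213.1, 275.2 and 164.7 in CFA and 342.3, 284.1 and 157.6 in CSA. CSA mice 01 and 02 were the highest of all libraries, and CSA mouse 03 lay within the saline range. CSA differed from CFA by 0.22 ± 0.27 (limma adjusted p = 0.547) and from CSS by 0.62 ± 0.27 (limma adjusted p = 0.0858). Both passed without CSA mouse 03, at 0.55 (limma adjusted p = 0.0432) and 0.95 (limma adjusted p = 0.00258), and with array weights, at 0.494 (limma adjusted p = 0.0178) and 0.896 (limma adjusted p = 0.000243). Without CSA mouse 01 the first was -0.009.

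Igfbp6 (ENSMUSG00000023046, chr15:102144362-102149511, + strand), which prefers IGF2 as its ligand, was at 127.8, 180.9 and 121.8 FPKM in CFS, 137.0, 137.1 and 153.3 in CSS, 116.5, 107.5 and 116.3 in CFA and 58.9, 81.3 and 38.3 in CSA. The CSA libraries were the lowest and did not overlap any other group. Igfbp6 was 1.99-fold lower in CSA than in CFA (log2 fold change -0.99 ± 0.24, limma adjusted p = 0.0071) and 2.5-fold lower than in CSS (-1.32 ± 0.24, limma adjusted p = 0.00104). Igfbp7 (ENSMUSG00000036256, chr5:77349240-77408041, - strand), the most abundant of the 10 transcripts in every library, was at 1554.5, 1888.6 and 1583.0 FPKM in CFS, 2357.2, 2192.1 and 2324.7 in CSS, 3174.5, 2754.0 and 2132.3 in CFA and 1126.4, 1140.8 and 1190.4 in CSA. The CSS and CFA libraries all lay above CFS, whereas the CSA libraries lay below it. Igfbp7 was 2.3-fold lower in CSA than in CFA (-1.20 ± 0.15, limma adjusted p = 0.000116) and 1.99-fold lower than in CSS (-0.99 ± 0.15, limma adjusted p = 0.000339). The higher values in CSS (0.46 ± 0.15, limma adjusted p = 0.613) and CFA (0.67 ± 0.15, limma adjusted p = 0.147) against CFS did not pass, and that in CFA passed without CFA mouse 74 (0.825, limma adjusted p = 0.0186) and with array weights (0.819, limma adjusted p = 0.0128).

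The make-up of the binding-protein transcripts changed with these values. The summed FPKM of Igfbp2 to Igfbp7 was 1436.4 to 1633.2 in CSA, below all other libraries (1978.9 to 3772.7), and Igfbp7 made up 69.7% to 82.9% of it in CSA and 78.6% to 85.8% in the other groups. The shares that follow leave out Igfbp7. Igfbp4 made up 57.7% to 69.8% of the summed FPKM of Igfbp2 to Igfbp6 in CSA and 32.2% to 45.0% in the other groups. Igfbp5 made up 3.67% to 8.9% of that sum in CSA, 9.81% to 22.7% in CFA, 18.9% to 23.9% in CSS and 25.7% to 28.2% in CFS. The sum of Igfbp2 to Igfbp6 was 490.8 and 492.4 FPKM in CSA mice 01 and 02, within the range of 390.7 to 611.6 in the other groups, and 245.9 in CSA mouse 03, below it. Igf1 amounted to 2.07% to 2.8% of that sum in CFS, 1.54% to 1.68% in CSS, 2.37% to 3.63% in CFA and 5.67% to 17.6% in CSA, the highest share being that of mouse 03. These shares are descriptions of transcript levels, without a test.

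**Figure D3:**
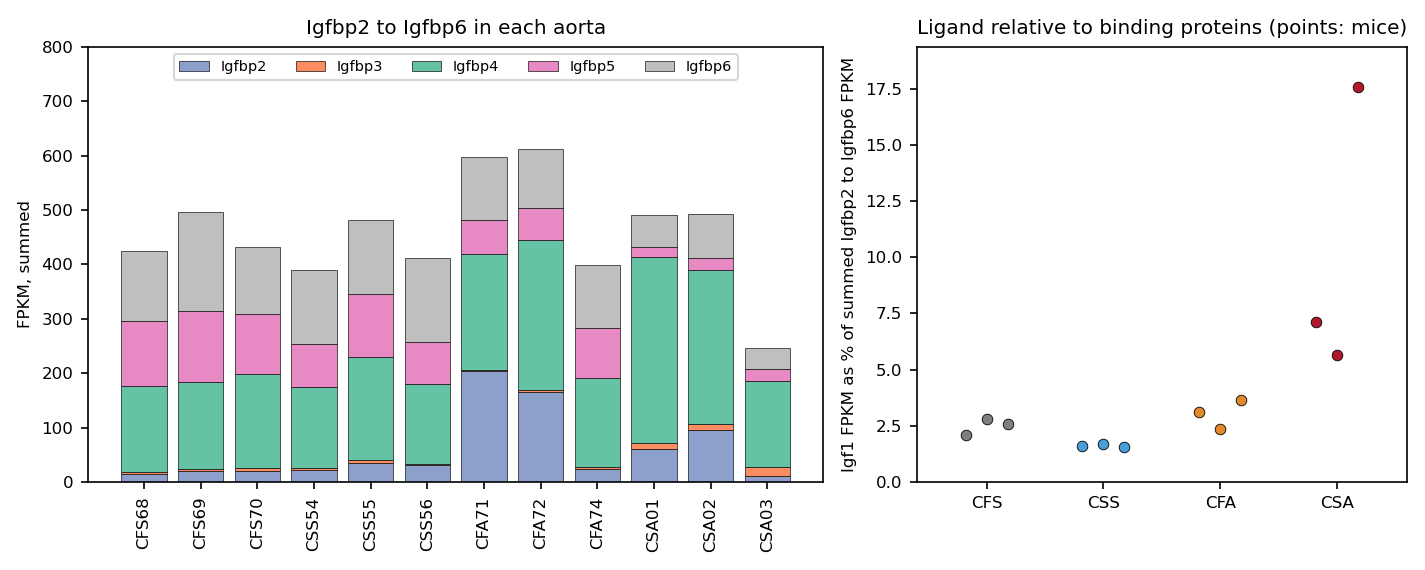
Left, FPKM of Igfbp2 to Igfbp6 stacked for each of the 12 aortas (y axis, FPKM, from 0). Right, Igf1 FPKM as a percentage of that sum, 1 point per mouse. The Igfbp4 share is larger in CSA (57.7% to 69.8%) than in the other groups, and the CSA points on the right lie between 5.67% and 17.6%, above all others.

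Neither the deletion under saline nor Ang II in CCN2 fl/fl mice gave a called gene of the system. Between CSS and CFS, 0 of 9 were called by limma, beside 0.0136% of all genes tested, and 3 of 9 (Igf1, Igfbp5 and Igfbp7) had an unadjusted p under 0.05, beside 6.3% of all genes. Between CFA and CFS, 0 of 9 were called by limma, beside 0.0273% of all genes, and 5 of 9 (Igf1, Igf1r, Igfbp2, Igfbp5 and Igfbp7) had an unadjusted p under 0.05, beside 9.42% of all genes. These backgrounds moved with single libraries. The calls over all genes between CFA and CFS numbered 4, against 124 without CFA mouse 74, 17 without CSA mouse 03, 0 to 2 without any other single mouse and 147 with array weights. Those between CSS and CFS numbered 2, against 16 without CSA mouse 03, 0 to 4 without any other single mouse and 35 with array weights. Under the array-weighted fit the count between CFA and CFS was 1, Igfbp2. In CCN2SMCΔ mice, Ang II was accompanied by 2 calls of higher (Igf1 and Igfbp3) and 1 of lower (Igfbp5) among the 9, beside 10.9% and 9.36% of all genes. By adjusted p alone the counts were 2 higher and 5 lower, beside 22.3% and 23.9% of all genes. The comparisons of CSA with CFA and of CSA with CSS share the CSA libraries, so their like directions are not independent.

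The interaction of genotype and treatment tested whether the genotype difference under Ang II differed from that under saline. It was called positive for Igf1 (1.82 ± 0.30, limma adjusted p = 0.00131) and Igfbp3 (2.83 ± 0.67, limma adjusted p = 0.0102), beside 7.89% of all genes. With array weights Igf1 fell short of the fold limit, at 1.45. It was called negative for Igfbp7 (-1.66 ± 0.22, limma adjusted p = 0.000378), beside 7.31%. By adjusted p alone 2 of 9 were positive and 4 negative, beside 12.8% and 13.7% of all genes, and the further genes were Igf1r (-1.06 ± 0.15, limma adjusted p = 0.000522), Igf2r (-0.77 ± 0.18, limma adjusted p = 0.00831) and Igfbp5 (-1.37 ± 0.28, limma adjusted p = 0.00429). Igfbp6 missed the threshold (-1.01 ± 0.34, limma adjusted p = 0.0519). Of these 6 genes, Igf1, Igfbp3, Igf1r, Igf2r and Igfbp7 had genotype differences of opposite sign under saline and Ang II, and Igfbp5 was lower in both, although no difference under saline passed.

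The genes whose profiles lay nearest to the 4 called genes over the 12 libraries were found from log2(FPKM + 0.1) centred on each gene's mean, with the root mean square distance in brackets. Nearest to Igf1 were Cmah (0.159), the collagen gene Col1a1 (0.205) and Zfp984 (0.227). Col1a1, one of the fibroblast markers, was at 742.6 to 1023.2 FPKM in CFS, 579.8 to 695.6 in CSS, 1382.7 to 1512.5 in CFA and 2561.0 to 3262.2 in CSA, the same order of groups as Igf1. Igfbp3 had no neighbour as close. Its nearest were the cadherin gene Cdh2 (0.318), the collagen gene Col6a5 (0.403) and the imprinted transcription factor gene Plagl1 (0.411). Nearest to Igfbp5 were Atp6v0e2 (0.173), AI838599 (0.19) and the imprinted non-coding RNA Peg13 (0.195), and nearest to Igfbp7 were the matrix protein gene Ecm1 (0.173), Gm6277 (0.179) and Arhgef5 (0.187). Peg13 was at 39.6 to 40.7 FPKM in CFS, 34.1 to 37.1 in CSS, 22.7 to 35.1 in CFA and 7.07 to 8.2 in CSA, also falling below each other group in CSA. The libraries share their cell mixture across genes, and these distances are given without a test.

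Of the 9 genes for proteases that cut binding proteins and the inhibitors of those proteases, 8 were tested between CSA and CFA, and 1 was called higher and 2 lower, beside 8.95% and 8.27% of all genes. By adjusted p alone the counts were 2 and 4, beside 19.5% and 21.2%, shares that are the background for each list below. The median log2 fold change of the 8 was -0.92, against -0.04 for all genes. The gene of Adam12, a metalloprotease that cuts IGFBP3 and IGFBP5, was at 0.607 to 2.64 FPKM in CFA and 10.8 to 12.1 in CSA, a difference of 3.29 ± 0.52 (limma adjusted p = 0.000497). Adam12 passed the filter on low values only through CSA, where it was high, so its calls of higher in comparisons with CSA were partly set by that filter. The serine protease gene Htra1 was at 178.6 to 308.1 FPKM in CFA and 52.5 to 71.9 in CSA (-1.91 ± 0.19, limma adjusted p = 1.96e-05). Stc2, an inhibitor of PAPP-A, was at 1.91 to 2.91 FPKM in CFA and 0.668 to 0.938 in CSA (-1.58 ± 0.20, limma adjusted p = 0.000102). Of 4 genes listed as other IGF-binding and carrier proteins, Igfbp1, Igfals, Igfbpl1 and Esm1, only Esm1, an endothelial proteoglycan, was tested. Esm1 did not pass (-0.29 ± 0.72, limma adjusted p = 0.777), and this result does not cover the others.

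Of the 12 genes of the insulin receptor family, substrates and adaptors, 10 were tested, and 0 were called higher and 2 lower between CSA and CFA (beside 8.95% and 8.27% of all genes), and 2 and 4 by adjusted p alone (beside 19.5% and 21.2%), with a median log2 fold change of -0.34. Both called genes were the IRS docking proteins that link the receptors to PI3K. Irs1 was at 3.56 to 4.09 FPKM in CFA and 0.906 to 1.19 in CSA (-1.75 ± 0.17, limma adjusted p = 1.62e-05). Irs2 was at 8.63 to 16.7 FPKM in CFA and 3.17 to 4.49 in CSA (-1.71 ± 0.34, limma adjusted p = 0.00223). The adaptor gene Sh2b2 overlapped between the groups (1.35 ± 0.59, limma adjusted p = 0.0886).

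All 23 genes of the PI3K, AKT, FOXO and mTOR list were tested, and 2 were called higher and 0 lower (beside 8.95% and 8.27% of all genes), and 2 and 6 by adjusted p alone (beside 19.5% and 21.2%), with a median of -0.32. The share called higher was thus close to that of all genes. The 2 were the catalytic subunits known from leukocytes, Pik3cg (0.948 to 1.93 FPKM in CFA, 5.31 to 8.44 in CSA, 2.33 ± 0.33, limma adjusted p = 0.000228) and Pik3cd (2.68 to 5.06 in CFA, 10.9 to 21.2 in CSA, 2.20 ± 0.28, limma adjusted p = 0.00012). The macrophage, neutrophil and T-cell markers given above were higher in the same libraries, and their part in this was not tested.

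**Figure D4:**
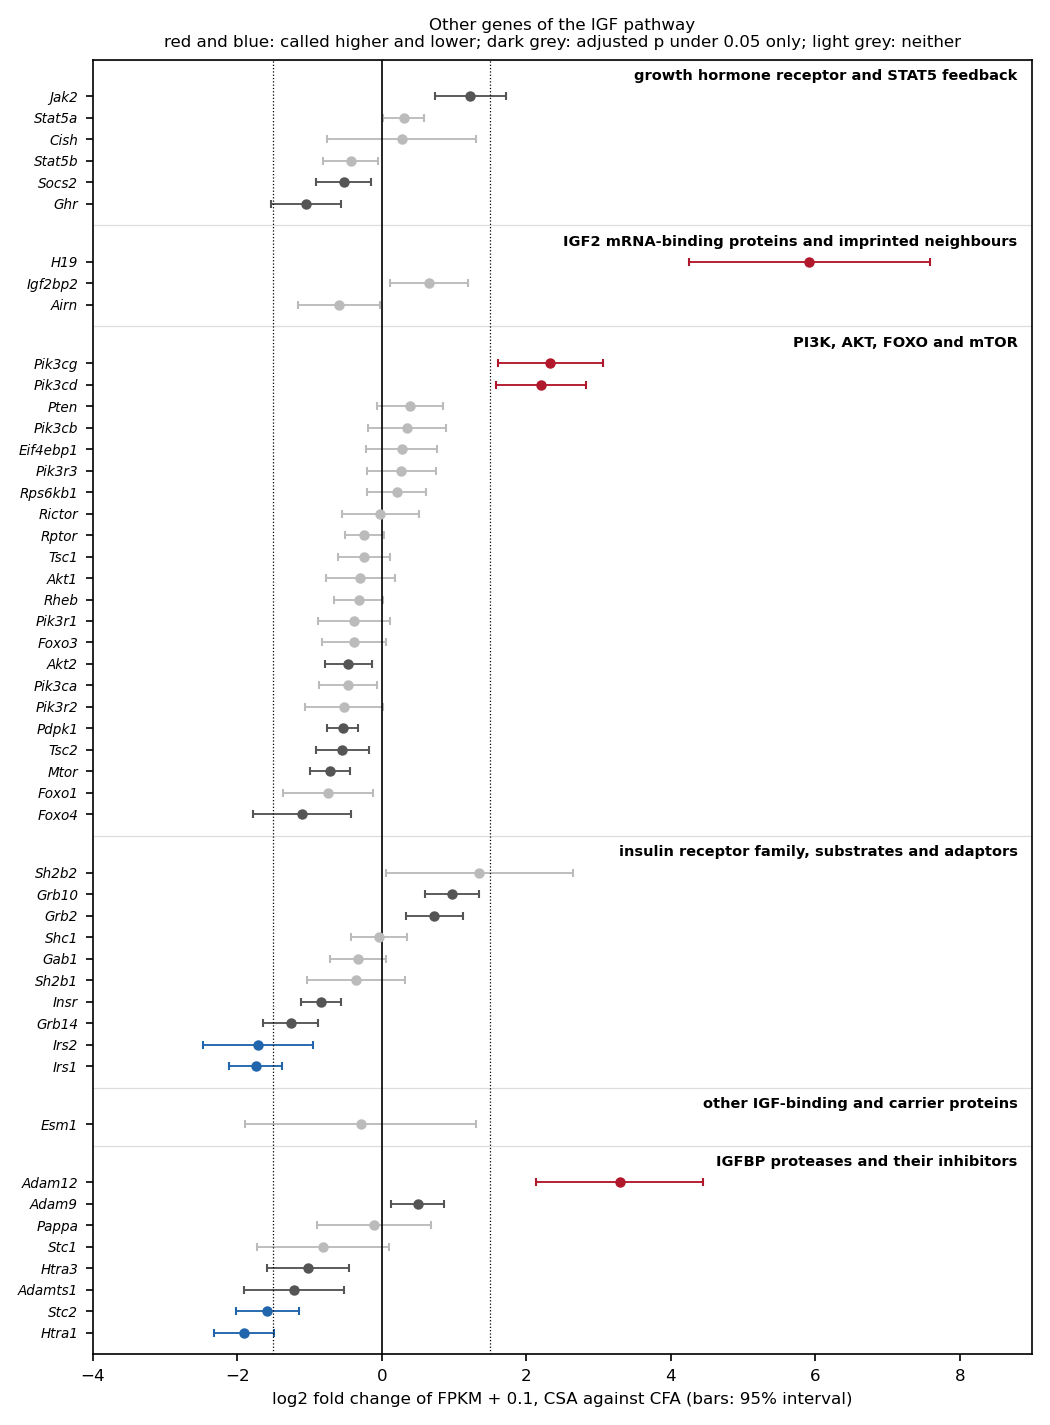
Log2 fold change of FPKM + 0.1 between CSA and CFA (x axis) for the tested genes of the 6 further lists of the IGF pathway (y axis, grouped by list, with 1 gene left out), with 95% intervals as bars and dotted lines at the fold limit of 1.5. Called genes are red (higher) and blue (lower), with H19 at 5.92 the farthest from 0.

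Of 6 genes of the IGF2 mRNA-binding proteins and the imprinted neighbours of Igf2 and Igf2r, 3 were tested and 1 was called higher, the non-coding RNA H19. H19 (chr7:142575529-142578143, - strand) lies 72622 bases from Igf2, with which it shares an imprinting control region. It was at 1.8, 1.85 and 0.896 FPKM in CFS, 1.2, 5.24 and 0.318 in CSS, 2.16, 3.74 and 1.13 in CFA and 159.4, 152.2 and 97.1 in CSA. Every CSA library lay far above the others, by 5.92 ± 0.76 on the log2 scale against CFA (limma adjusted p = 0.000116) and 6.54 ± 0.76 against CSS (limma adjusted p = 4.15e-05). In the same CSA libraries Igf2 had 10, 3 and 0 fragments. Igf2bp2 (0.65 ± 0.24, limma adjusted p = 0.0535) and Airn, a non-coding RNA transcribed across Igf2r on the other strand (-0.59 ± 0.26, limma adjusted p = 0.0906), did not pass.

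**Figure D5:**
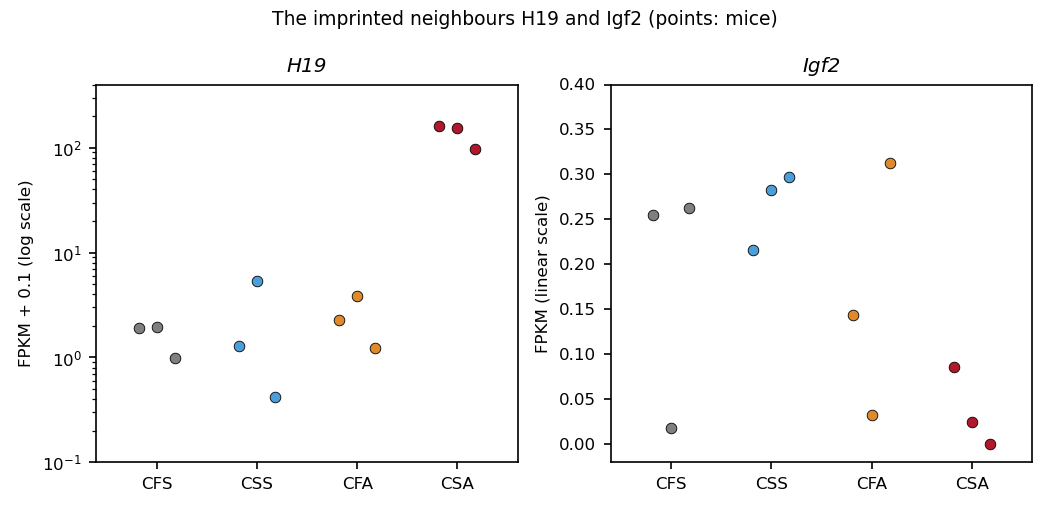
FPKM + 0.1 of H19 (left, log axis) and FPKM of Igf2 (right, linear axis) in the 4 groups, 1 point per mouse. H19 is at 97.1 to 159.4 FPKM in CSA and at 0.318 to 5.24 elsewhere, while Igf2 does not exceed 0.313 FPKM in any library.

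The growth hormone receptor and STAT5 feedback genes, which control Igf1 in liver, had 0 of 6 called and 1 higher and 2 lower by adjusted p alone. Jak2 was higher in CSA than in CFA (1.23 ± 0.22, limma adjusted p = 0.00121). Ghr, the receptor gene, was at 27.0 to 52.1 FPKM in CFA and 15.5 to 20.1 in CSA (-1.05 ± 0.22, limma adjusted p = 0.00269), and the feedback inhibitor gene Socs2 was lower as well (-0.53 ± 0.17, limma adjusted p = 0.0294). Between CSA and CSS the calls of higher and lower were 1 and 2 of the 8 tested genes for the proteases and inhibitors, 1 and 2 of 10 for the insulin receptor family, 2 and 0 of 23 for PI3K, AKT, FOXO and mTOR, 1 and 0 of 3 for the IGF2 mRNA-binding proteins and imprinted neighbours, and 0 and 0 of 6 for the growth hormone receptor list, beside 10.9% and 9.36% of all genes. The interaction was called positive and negative for 1 and 1 of 8, 0 and 0 of 10, 2 and 0 of 23, 1 and 0 of 3, and 0 and 0 of 6 genes in the same order, beside 7.89% and 7.31%. Between CSS and CFS, and between CFA and CFS, 0 of the 51 tested genes of the 6 lists were called by limma, and 5 and 13 had an unadjusted p under 0.05, beside 6.3% and 9.42% of all genes.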

How the data were processed

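RNA-Seq of abdominal aorta from 12 male mice in 4 groups of 3 was analysed, with groups and mouse numbers taken from the sample labels. The authors deposited FPKM, 1 value per feature and mouse, in which 0 sample columns were left unused. The submitters' processing notes name HISAT2 2.0.5, StringTie 1.3.3b, featureCounts 1.5.0-p3 and the build mm10. Strand setting and annotation are not given in the sources used here. Symbols, positions and exon lengths came from GENCODE M21 (GRCm38), which gave a symbol for 54409 of 55092 features. With those lengths, 98.05% to 98.53% of values below 100 fragments were whole within 0.05, and their sums gave the depth. Floors cover counting error only. Median-of-ratios factors were equal in all 12 libraries, so the deposited values already carry a scaling that the sources do not describe. The study's DEG-Seq test needs counts, so log2(FPKM + 0.1) was fitted with limma 3.58.1 in R 4.3.3 (lmFit, eBayes with trend and robust settings), with a mean for each group, no covariate and all libraries together, for the 14676 features that reached 1 FPKM in 3 or more libraries. P-values were Benjamini-Hochberg adjusted over all of them within each of 5 comparisons. The fit was tested on simulated data. Python 3.11.15 (numpy 2.4.6, pandas 2.3.3, matplotlib 3.10.9) made the tables and figures. Named genes were the 10 members, Ccn2, the 3 genes of each of 6 pathway lists with the largest absolute change between CSA and CFA, and the 3 profiles nearest to each called member; 1 gene that this rule selects is not reported here. Members and lists were chosen with earlier results of these data known. The 11 marker lists were summed by library, and each is given. Alternatives were another pseudocount (1), no filter, a mean FPKM of at least 5, 2 scalings, eBayes without trend and robust settings, array weights, fits of the compared groups alone, no fold limit, and each mouse left out in turn.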

Additional observations from a re-analysis of the deposited data

Results flagged for a closer look

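The genotype difference under Ang II minus that under saline, tested as an interaction in limma, passed an adjusted p under 0.05 for 6 of the 9 tested genes. It was positive for Igf1 (1.82 on the log2 scale, limma adjusted p = 0.00131) and Igfbp3 (2.83, limma adjusted p = 0.0102). It was negative for Igf1r (-1.06, limma adjusted p = 0.000522), Igf2r (-0.77, limma adjusted p = 0.00831), Igfbp5 (-1.37, limma adjusted p = 0.00429) and Igfbp7 (-1.66, limma adjusted p = 0.000378). For Igf1, Igfbp3, Igf1r, Igf2r, Igfbp5 and Igfbp7 this difference kept its direction and passed under each of the 19 alternatives run. No outlier test of single values was run on the groups of 3 mice.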

How the results depend on the processing

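Of 45 log2 fold changes followed (9 genes in 5 comparisons), 35 kept their direction and their side of the adjusted p threshold under every alternative, and 0 of those that passed were lost. With no fold limit, 7 genes were called between CSA and CFA in place of 2, 7 between CSA and CSS in place of 3, and 6 in the interaction in place of 3. Array weights gave 1 call between CFA and CFS in place of 0 (Igfbp2, 2.95, limma adjusted p = 0.0309) and 2 in the interaction, with Igf1 at 1.45. The direction of small differences turned in some alternatives. Leaving out 1 mouse at a time moved Igfbp4 between -0.009 and 0.55 for CSA against CFA, between -0.139 and 0.045 for CSS against CFS, Igfbp6 between -0.096 and 0.19 for CSS against CFS and Igfbp2 between -0.183 and 1.391 for CSA against CSS, and scaling to library sums gave 0.041 for Igfbp4 in CSS against CFS. The interaction of Igfbp6 passed in 6 of its 19 alternatives, with values of -1.26 to -0.72 over all of them (adjusted p 0.0109 to 0.117). The calls over all genes between CSA and CFA numbered 1314 higher and 1214 lower, 2528 in all. They were 918 and 683 with a pseudocount of 1 (1601 in all) and 1814 and 1380 with no filter (3194 in all). Where the mean had to reach 5 FPKM the balance turned, with 452 higher and 643 lower (1095 in all). It also turned without CSA mouse 01 (1290 and 1335) and without CSA mouse 02 (1303 and 1336). Scaling by median ratios applied 1 common factor to each library and changed the calls over all genes little (2529 between CSA and CFA). No paired analysis was possible because the mouse numbers are not shared between groups. Precision is limited by 3 mice per group and by CSA mouse 03, which stands apart from mice 01 and 02. For Igf2 it is also limited by depth and by exonic bases shared with other genes.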
